A study of Mus musculus with 4 samples.

Results

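The genes described here act in iron absorption by the upper small intestine: in transport across the absorptive cell, in uptake from the blood side, in storage, or in the control of these steps. They are 10 genes chosen by name, and each had at least 1 probe with a level, so that 10 of the 14395 genes tested on the arrays are described. They are Cybrd1, Slc11a2, Slc40a1, Heph, Tfrc, Fth1, Ftl1, Epas1, Ireb2 and Aco1. RNA of small intestine was compared between wild-type mice and mice of the Cyp3a-/- genotype, which lack the Cyp3a cluster, a block of genes for drug- and steroid-oxidising cytochrome P450 enzymes. Each genotype had 2 samples, called wild type 1 and 2 and knockout 1 and 2, and the labels describe independent experiments on separate animals. No treatment, strain, age, stretch of intestine or number of animals per sample is given in the labels, so p-values measure only the spread between these samples. Each sample was read on a 1-colour Agilent array.

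Dietary iron is taken up mainly in the duodenum. Ferric iron is reduced at the brush border by the protein of Cybrd1 (Dcytb), enters the enterocyte through the importer DMT1 (Slc11a2), and is either stored in ferritin (Fth1 and Ftl1) or leaves across the basolateral membrane through ferroportin (Slc40a1), where hephaestin (Heph) oxidises it for loading onto transferrin. Transcription of Cybrd1, Slc11a2 and Slc40a1 is raised in iron shortage by the hypoxia-inducible factor that Epas1 encodes, while the iron regulatory proteins made from Aco1 and Ireb2 bind RNA hairpins in the ferritin, ferroportin, DMT1 and transferrin receptor (Tfrc) transcripts and set their translation or stability. An array reads transcript levels and not that control of translation.

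The labels give the tissue as small intestine and do not name the duodenum. Of the 9 genes listed as markers of the proximal small intestine, 9 were tested and all were well above background on all 4 arrays, among them the transcription factor genes Gata4 (levels of 1.98 and 2.05 in wild type 1 and 2, against 2.34 and 1.75 in knockout 1 and 2) and Pdx1 (1.47, 1.00, 1.54 and 0.79 in the same order). A level is the log2 signal of a probe minus the 75th percentile of its array, and levels of different probes cannot be set against each other. Of the distal markers, the ileal bile acid importer gene Slc10a2 was well above background on 2 of the 4 arrays and Nts on 0. Slc51a, Slc51b, Pyy, Cubn and the ileal fatty acid binding protein gene Fabp6 were above it on all 4. Levels ran from -5.08 to -3.05 for Slc10a2, from -4.81 to -3.35 for Fabp6 and from 2.19 to 3.55 for Slc51a, the brightest of the list. The arrays carried 39429 probes, of which 55.1% to 64.4% were well above background, and no spot was saturated. The number of arrays, 2 for each genotype, limits the precision. Wild type 2 and knockout 1 shared a slide and its scan (slide 2), and wild type 1 and knockout 2 were each alone on a slide. Knockout 1 stood apart, with a correlation across genes of 0.948 with knockout 2, against 0.979 between the wild-type arrays. The deletion was visible on the arrays, with a Cyp3a11 level of 5.05 and 5.78 in wild type, against -5.77 and -4.52 in knockout, where that probe was not well above background.

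None of the 10 iron genes passed the threshold between genotypes. Limma, fitted over all 14395 genes, called 0 of 10 at an adjusted p of 0.05, 0 of 10 had an unadjusted p under 0.05, and each adjusted p was 1.00. Over all genes the same rule called 0.0417% (6 genes, all lower in knockout and 0 higher), and 0.438% had an unadjusted p under 0.05. The differences, knockout minus wild type, ran from -0.048 to 0.35 on the log2 scale, with a median of 0.086 against 0.037 over all genes tested. In 0 of 10 were both knockout arrays above or both below the wild-type arrays, where 8.66% of all genes were apart upward and 6.09% downward. The intervals below show how much difference the 4 arrays could have hidden, and a p that misses the threshold does not show that the levels were equal.

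**Figure D1:**
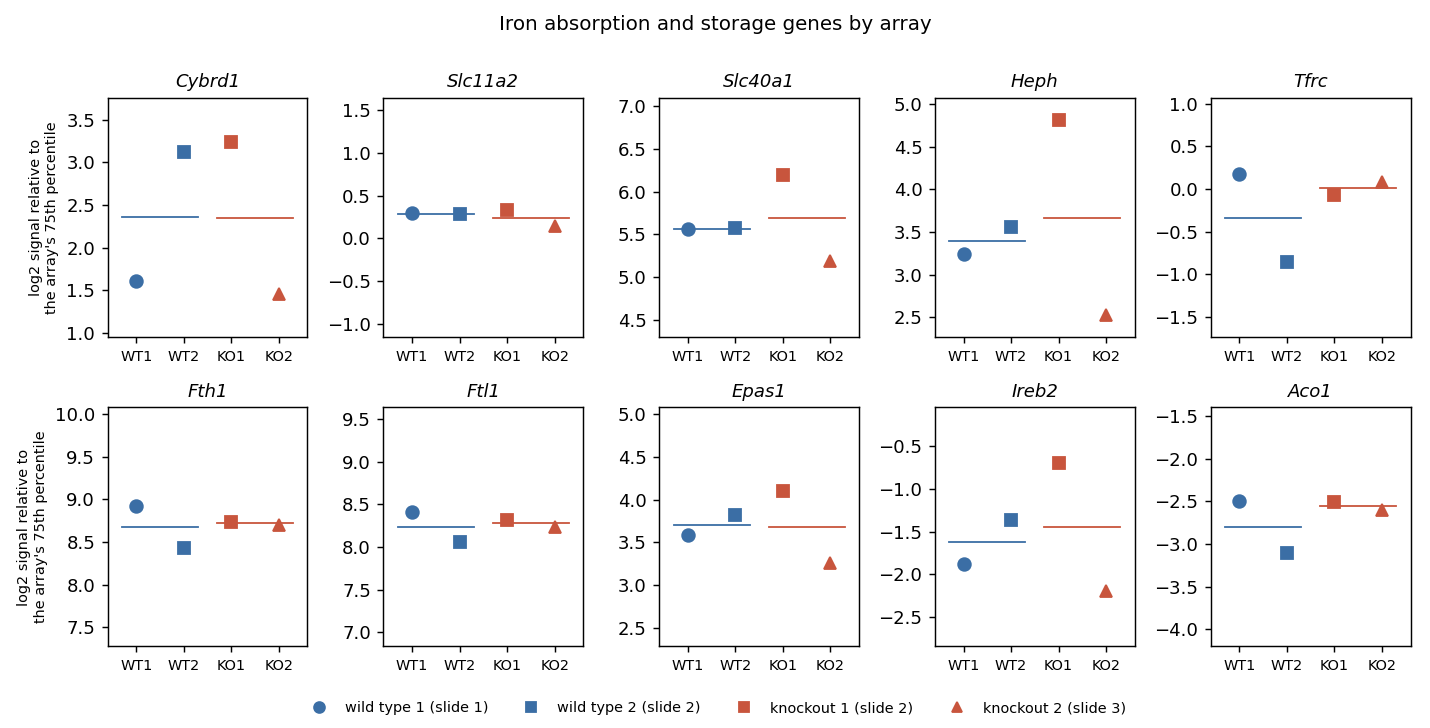
Levels of the 10 iron genes on each array (y axis, log2 signal relative to the array's 75th percentile, every panel spanning the same range of log2 units), with blue for wild type (WT), red for knockout (KO), the symbol for the slide and a line for the mean of each genotype. In every panel the genotypes overlap, and Cybrd1 and Heph have the widest spread.

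Cybrd1, the brush border iron reductase gene, read 1.61 and 3.12 in wild type 1 and 2, against 3.24 and 1.46 in knockout 1 and 2. The high values were thus those of wild type 2 and knockout 1, the pair on slide 2, and the genotypes overlapped fully. The genotype means were 2.36 ± 1.07 and 2.35 ± 1.26 (SD, n = 2). The log2 difference was -0.011 (SE 0.71, limma's adjusted p = 1.00), with a 95% interval from 3.35-fold lower to 3.299-fold higher. The spread within genotypes was larger than for 97.3% of genes tested. Wild type 2 exceeded wild type 1 by 1.51 and knockout 1 exceeded knockout 2 by 1.78. Of all genes, 0.431% (62 genes, Cybrd1 included) had gaps of at least 1.51 in these same directions in both genotypes. Equally large gaps in other directions were not counted. A second Cybrd1 probe read -0.36, 1.08, 1.28 and -0.41 in the same order, with gaps of 1.44 and 1.69, so on both probes the arrays of slide 2 were the high ones. The difference within slide 2 was 0.12, and between the arrays on slides of their own it was -0.15. Slide, animal and experiment cannot be told apart for these gaps, since each array came from another sample.

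Promoter sequence was given in RefSeq's GRCm38.p6 tables for 6 of the 10 genes (Cybrd1, Tfrc, Fth1, Ftl1, Ireb2 and Aco1). Hypoxia response elements, the sites bound by the factor that Epas1 encodes, have the core ACGTG or GCGTG, and both were searched on both strands in the 250 bases before each start, overlaps allowed. The core was found in Cybrd1, Tfrc, Fth1 and Ftl1, in 5 of 8 windows of these genes, and not in Ireb2 and Aco1. Of all 32851 promoter windows of the same length, 38.6% held it, so a match is a description of the letters and not a site. Shown are the windows of Cybrd1, the gene whose level differed most between arrays of 1 genotype among those with a sequence, and of the upstream start of Tfrc, whose lowest level was on an array where Cybrd1 was high. Both lie on the forward strand, Cybrd1 at chr2:71117804-71118053 and Tfrc at chr16:32608646-32608895, with the core in capitals and the last base next to the start. In Cybrd1 the core begins 161 bases before the start, and in Tfrc the 2 matches begin 117 and 64 bases before it, both in reverse orientation.
Cybrd1: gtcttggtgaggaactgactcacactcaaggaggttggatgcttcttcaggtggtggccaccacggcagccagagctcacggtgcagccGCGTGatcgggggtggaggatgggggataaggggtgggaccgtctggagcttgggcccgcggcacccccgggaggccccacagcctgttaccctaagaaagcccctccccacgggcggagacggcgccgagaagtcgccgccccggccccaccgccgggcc
Tfrc: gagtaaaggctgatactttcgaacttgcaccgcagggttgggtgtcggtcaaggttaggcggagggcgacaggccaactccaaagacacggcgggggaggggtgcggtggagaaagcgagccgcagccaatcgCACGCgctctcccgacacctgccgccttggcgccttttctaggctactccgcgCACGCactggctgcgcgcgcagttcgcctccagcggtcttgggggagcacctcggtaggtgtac

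Slc11a2, which encodes the apical iron importer DMT1, was nearly level over the 4 arrays on the probe used. Its levels were 0.30 and 0.28 in wild type 1 and 2, against 0.33 and 0.15 in knockout 1 and 2. The log2 difference was -0.048 (SE 0.27, limma's adjusted p = 1.00), and the 95% interval, the narrowest among these genes, ran from 1.62-fold lower to 1.52-fold higher. Its spread within genotypes was larger than that of only 6.69% of genes tested. A second probe of the same accession disagreed on knockout 1: its levels were -0.62 and -1.15 in wild type, against -2.01 and -0.83 in knockout, a difference of -0.54 (SE 0.46, adjusted p over probes = 1.00). The gene has transcripts with different ends, and the arrays' files do not say which of them a probe binds.

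Slc40a1 encodes ferroportin, the exporter at the basolateral membrane and also of iron-recycling macrophages. Its levels were 5.56 and 5.57 in wild type, against 6.20 and 5.19 in knockout 1 and 2, so that knockout 1 lay above and knockout 2 below both wild-type arrays. The means were 5.56 ± 0.0091 and 5.69 ± 0.71 (SD, n = 2), and the log2 difference was 0.13 (SE 0.42, limma's adjusted p = 1.00) with an interval from 1.85-fold lower to 2.21-fold higher. Heph, the ferroxidase that works beside it, had the widest range of the 10 genes, with levels of 3.24 and 3.55 in wild type, against 4.81 and 2.53 in knockout 1 and 2. Its knockout values were 2.28 apart, and again knockout 1 was highest and knockout 2 lowest. The difference was 0.27 (SE 0.71, adjusted p = 1.00), with an interval from 2.73-fold lower to 3.98-fold higher. This difference was -0.87 without knockout 1 and 1.41 without knockout 2, in fits where only wild type contributed a spread. Another Heph probe, for a different accession, had levels of -2.88, -3.29, -2.97 and -3.15 in the same order and a difference of 0.032, so it did not follow the first. The remaining Heph probe, well above background on 2 of 4 arrays, gave -6.09, -4.71, -3.87 and -6.11, with knockout 1 highest and knockout 2 lowest as on the probe used. After normexp background correction both differences turned, to -0.54 for Slc40a1 and -0.30 for Heph, without passing the threshold.

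Tfrc, the transferrin receptor gene that serves iron uptake from the blood side, read 0.18 and -0.85 in wild type 1 and 2, against -0.064 and 0.085 in knockout. Wild type 2 was low and the other 3 arrays were close together. The difference of 0.35 (SE 0.40, limma's adjusted p = 1.00) was the largest among the 10 genes, and its interval ran from 1.54-fold lower to 2.49-fold higher. It rested on wild type 2: without that array the difference was -0.17, and without wild type 1 it was 0.86. A second probe gave the same picture, with levels of -1.07 and -1.81 in wild type, against -1.10 on both knockout arrays.

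The ferritin genes moved little. Fth1, the ferroxidase subunit, read 8.92 and 8.43 in wild type 1 and 2, against 8.74 and 8.70 in knockout, and Ftl1, the subunit that aids mineral formation, had 8.41 and 8.06 and then 8.32 and 8.24. In both genes wild type 1 was highest and wild type 2 lowest, and the knockout arrays lay between them. The log2 differences were 0.042 (SE 0.43) for Fth1 and 0.043 (SE 0.40) for Ftl1, with limma's adjusted p = 1.00 for each. Their intervals were similar, from 2.00-fold lower to 2.12-fold higher and from 1.91-fold lower to 2.02-fold higher. A second Ftl1 probe read 4.50 and 4.51 in wild type, against 5.27 and 4.09 in knockout, an order unlike that of the first. Ferritin genes have many near-identical processed copies, so signal on these probes may come from more than 1 locus. Both directions turned under 2 other treatments of the arrays: after quantile scaling the differences were -0.17 for each gene, and after normexp background correction -0.65 for Fth1 and -0.67 for Ftl1, none past the threshold.

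Among the regulators, Epas1 had levels of 3.59 and 3.82 in wild type, against 4.11 and 3.26 in knockout 1 and 2, with knockout 1 highest and knockout 2 lowest. Its difference was -0.021 (SE 0.37, limma's adjusted p = 1.00), and the interval ran from 1.88-fold lower to 1.83-fold higher. Its other probes were well above background too, and differed by 0.20 and 0.040. On the first of these the order was turned, with 2.37 in knockout 1 and 2.92 in knockout 2. Ireb2, for iron regulatory protein 2, had levels of -1.87 and -1.36 in wild type, against -0.70 and -2.19 in knockout, a difference of 0.17 (SE 0.54) with the knockout arrays 1.495 apart. Aco1, which encodes cytosolic aconitase, the enzyme that becomes iron regulatory protein 1 when it loses its iron-sulfur cluster, had -2.50 and -3.10 in wild type, against -2.50 and -2.61 in knockout. Its difference was 0.25 (SE 0.39), with wild type 2 lower than the other arrays. The intervals ran from 2.20-fold lower to 2.80-fold higher for Ireb2 and from 1.61-fold lower to 2.27-fold higher for Aco1, with limma's adjusted p = 1.00 for both.

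**Figure D2:**
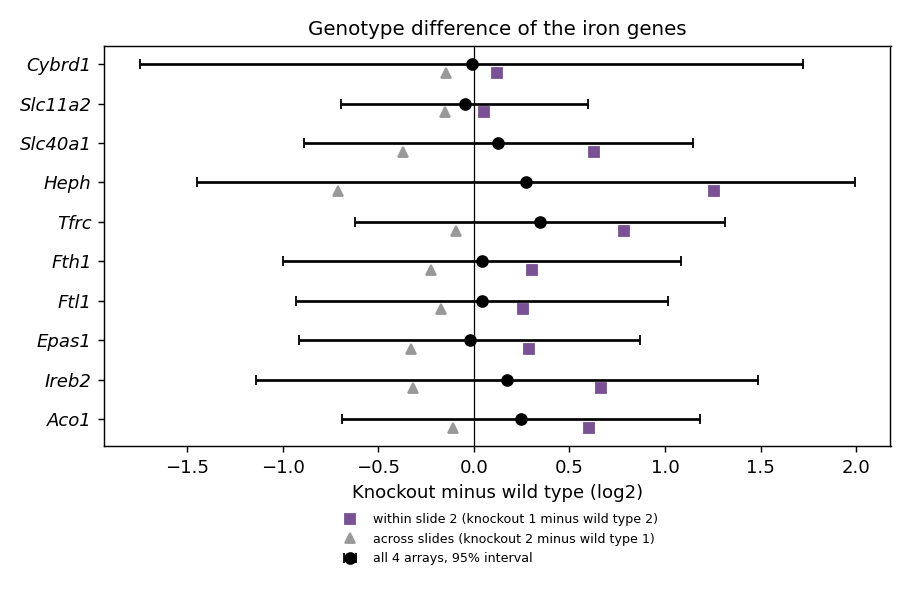
Knockout minus wild type (x axis, log2) for each of the 10 genes, with black points and bars for the fit over 4 arrays and its 95% interval, squares for the pair on slide 2 and triangles for the pair on separate slides. Every interval includes 0, all 10 squares are above 0 and all 10 triangles below it.

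The pair on slide 2 and the pair on slides of their own gave opposite signs. Knockout 1 exceeded wild type 2 in 10 of 10 iron genes, by 0.052 for Slc11a2 to 1.25 for Heph with a median of 0.45, and knockout 2 was under wild type 1 in 10 of 10, with a median of -0.20. Over all genes tested, 56.4% were positive in the pair on slide 2 and 48.7% negative in the other, and 35.8% did both. The 15 enterocyte marker genes described below did the same as the iron genes, with 15 of 15 positive in the first pair and 15 of 15 negative in the other. Since an array's scale factor enters every gene on it, these counts are not 10 separate observations.

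The signs above already limit the highest array to knockout 1 or wild type 1, and the lowest to knockout 2 or wild type 2. Within that limit the 10 genes had 2 patterns, which are thus not a separate result. Cybrd1, Slc11a2, Slc40a1, Heph, Epas1 and Ireb2 were highest in knockout 1 and lowest in knockout 2 (6 of 10, against 16.3% of all genes). Tfrc, Fth1, Ftl1 and Aco1 were highest in wild type 1 and lowest in wild type 2 (4 of 10, against 10.02%), although for Aco1 wild type 1 and knockout 1 both read -2.50. Among the 5152 of all genes with both signs, 2349 had the first pattern and 1442 the second. The arrays between the extremes differed, since wild type 1 was above wild type 2 in Slc11a2 only among the 6, and knockout 2 above knockout 1 in Tfrc only among the 4. The first group holds all 4 genes of transport across the enterocyte with Epas1 and Ireb2, and the second the ferritin genes, Tfrc and Aco1. The place of Slc11a2 rests on small gaps. Its range over the arrays was 0.18, with 0.33 in knockout 1 and 0.30 in wild type 1, and its second probe was lowest in knockout 1. On other probes, the extremes were the same for the second probes of Cybrd1 and Tfrc, the third of Epas1 and the dimmest of Heph, and were not for the second probes of Slc11a2, Epas1, Ftl1 and Heph. For Tfrc and Heph these rest on small gaps. On the Tfrc probe wild type 1 read -1.07 and both knockout arrays -1.10. On the dim Heph probe, well above background on 2 arrays, knockout 2 read -6.11 and wild type 1 -6.09.

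**Figure D3:**
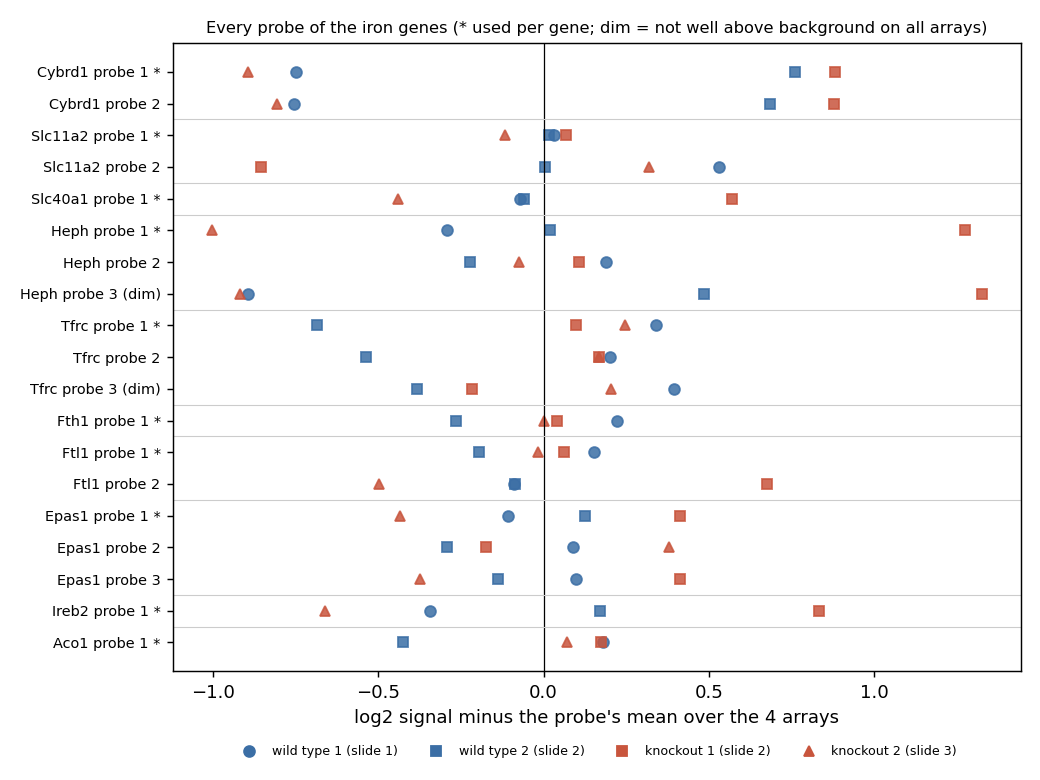
All 19 probes of the 10 genes, each array's log2 signal minus that probe's mean over the 4 arrays (x axis), with colour for genotype and symbol for slide. Both Cybrd1 probes put the arrays of slide 2 to the right, while probes of Slc11a2, Heph, Ftl1 and Epas1 disagree with each other.

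Markers of cell types moved between the arrays beside these genes. Markers of enterocytes, the absorptive cells where most of these genes act, were highest in knockout 1 in 13 of 15 and lowest in knockout 2 in 10 of 15. All 15 were well above background on all 4 arrays. Their summed level was 10.3 and 9.66 in wild type 1 and 2, against 10.7 and 9.79 in knockout 1 and 2, with Fabp2, a fatty acid binding protein gene, at 8.86, 8.18, 8.77 and 8.54. Smooth muscle markers ran the other way, lowest in knockout 1 in 9 of 9, with summed levels of 8.23 and 8.39 in wild type, against 7.41 and 8.998 in knockout and the myosin light chain gene Myl9 at 6.98, 7.05, 6.14 and 7.70. In bulk tissue, fewer cells of a type and less RNA per cell cannot be told apart. When the arrays were centred on the enterocyte markers instead, a scaling chosen after these values were seen, Slc40a1 had -0.30, Heph -0.16 and the median over the 10 genes -0.35, where the median of all genes was -0.40. On that scale the Cybrd1 gap between the knockout arrays was 0.20, and that between wild type 2 and wild type 1 was 2.12. On the first scale these gaps were 1.78 and 1.51, so the knockout gap was smaller on the enterocyte scale and the wild-type gap larger.

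**Figure D4:**
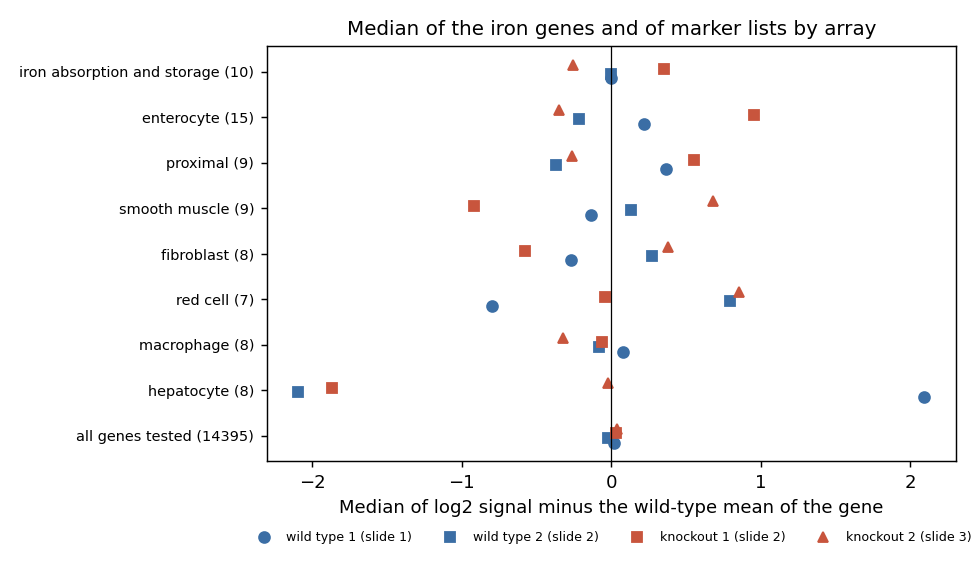
Median over the genes of a list of the log2 signal minus the gene's wild-type mean (x axis), for the iron genes, 7 marker lists and all genes, with the number of genes tested in parentheses, colour for genotype and symbol for slide. The iron genes are at 0.35 in knockout 1 and -0.26 in knockout 2, enterocyte markers at 0.95 and -0.35, and smooth muscle markers at -0.91 and 0.68.

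Other cells that handle iron were also checked. Macrophage markers, of cells that recycle iron from red cells and carry ferroportin, had summed levels over the 8 of 12 genes tested of 3.26 and 3.09 in wild type, against 3.25 and 2.88 in knockout, with Csf1r at 2.26, 2.12, 2.40 and 1.96. Red cell markers, led by the globin gene Hba-a2 (3.88, 5.22, 4.29 and 5.65), had summed levels over 7 of 10 genes of 4.17 and 5.59 in wild type, against 4.65 and 5.93 in knockout. The low arrays of the red cell list were wild type 1 and knockout 1. Of the other lists, the summed levels of fibroblast markers (8 of 8 genes tested, from 5.12 to 5.94, led by Dcn), endothelial markers (8 of 9, 3.95 to 4.46, led by Kdr) and neuron and glia markers (9 of 10, 5.49 to 6.88) were lowest in knockout 1. By gene, knockout 1 was lowest in 7 of 8 fibroblast and 8 of 9 neuron and glia genes. In the endothelial list knockout 1 was lowest in 4 of 8 genes and knockout 2 in 4. Goblet and Paneth cell markers had summed levels from 9.16 to 9.47 (10 of 11, led by Agr2). Summed levels of adipocyte markers ran from 3.42 to 4.10 (5 of 7, led by Cidec), highest in knockout 1 through Cidec, while 4 of the 5 genes were lowest there. Summed levels were highest in knockout 1 for distal markers (6 of 7, 2.69 to 4.42, led by Slc51a) and proximal markers (8.35 to 9.43, led by Fabp1). Of the pancreatic acinar markers 3 of 9 were tested, at -1.64 to -0.31, led by Cela1. The part of any of these in the iron gene values was not tested.

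The systemic iron regulators are mostly liver genes. Hamp, the gene of the hormone hepcidin that removes ferroportin from the membrane, was well above background only in wild type 1, at -2.49, and its signals on the other arrays were -7.25, -6.33 and -6.20. The summed level of hepatocyte markers (8 of 10 genes tested) was also highest there, at 4.19 against 1.69, 1.28 and 2.44 on the other arrays. The albumin gene Alb, well above background on 2 arrays, followed that order, at 1.33, -5.50, -5.56 and -2.60 in wild type 1 and 2 and knockout 1 and 2, and Ttr, the brightest of the list, did not, at 0.63, 1.16, -1.16 and 1.14. The part of those cells in the Hamp signal was not tested. Hamp2 was not well above background on any array. Tfr2, a sensor of loaded transferrin, had levels of -3.51 and -4.39 in wild type, against -4.09 and -3.87 in knockout, a difference of -0.029 (SE 0.49). Hfe, the gene mutated in hereditary hemochromatosis, had -0.93 and -0.69 in wild type, against -0.44 and -0.98 in knockout, a difference of 0.100 (SE 0.32).

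The remaining genes of iron, heme and hypoxia pathways were taken as 5 lists with 81 genes tested of 88 listed. Limma called 0 of 81 in either direction, against 0.0417% of all genes. An unadjusted p under 0.05 was found in 1 of 81, against 0.438% of all genes, and each adjusted p was 1.00. Both knockout arrays were above both wild-type arrays in 7 of 81 genes and below in 2, against 8.66% and 6.09% of all genes. Of the 16 tested genes of other iron handling, 7 differed upward and 9 downward, with a median of -0.040. Those of smallest p were Slc22a17, which encodes a lipocalin receptor (-0.85, SE 0.49), the lactoferrin gene Ltf (-1.19, SE 0.74), the ferrireductase gene Steap3 (0.50, SE 0.37) and the metal importer gene Slc39a8 (-0.78, SE 0.58). In Slc22a17, Ltf and Slc39a8 the low value was that of knockout 1 alone, such as -0.64 for Ltf against 1.33, 2.08 and 1.68 on the other arrays.

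Heme is the other form of dietary iron, and 18 genes of its uptake, synthesis and breakdown were tested. Of these 15 differed upward and 3 downward, with a median of 0.22, where 56.2% of all genes tested and 15 of 15 enterocyte markers differed upward. Slc46a1, the proton-coupled folate carrier also described as a heme carrier, had 6.48, 5.99, 6.72 and 6.19 with the genotypes overlapping (difference 0.22, SE 0.38). Hmox1, the inducible heme oxygenase, had -1.51 and -0.63 in wild type, against 0.42 and -1.15 in knockout 1 and 2, a difference of 0.70 (SE 0.58) carried by knockout 1. Blvrb, a biliverdin reductase, differed by 0.41 (SE 0.29), with levels of 0.81 and 1.16 in wild type, against 1.55 and 1.23 in knockout that did not overlap. Cpox, of heme synthesis, differed by 0.59 (SE 0.44) and the heme transporter gene Slc48a1 by -0.48 (SE 0.49).

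Of 18 genes of mitochondrial iron import and iron-sulfur cluster assembly, 15 differed upward, with a median of 0.18, beside the same 56.2% of all genes. Slc25a37, mitoferrin 1, which carries iron into mitochondria, was the gene with an unadjusted p under 0.05. Its levels were 2.33 and 1.71 in wild type, against 2.66 and 2.97 in knockout, so the genotypes did not overlap, and the difference was 0.79 (SE 0.32, unadjusted p = 0.048, limma's adjusted p = 1.00). Glrx5 differed by 0.31 (SE 0.34) and Nfs1 by 0.25 (SE 0.29), both with overlap.

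Since Epas1 acts with other parts of the hypoxia pathway, these were read as well. Of 7 components, 4 differed upward and 3 downward (median 0.029), with Hif1a at 0.33 (SE 0.40), the prolyl hydroxylase gene Egln1 at -0.17 (SE 0.39), the partner subunit gene Arnt at -0.071 (SE 0.27) and Vhl, whose protein marks the factor for degradation, at 0.055 (SE 0.27). Of 22 known targets of hypoxia-inducible factors, 16 differed upward (median 0.19), again beside 56.2% of all genes. Ddit4, a stress-induced inhibitor of growth signalling, had 1.91 and 1.07 in wild type, against 1.93 and 2.69 in knockout (0.81, SE 0.41). P4ha2 (-0.98, SE 0.60), Ero1a (0.56, SE 0.41) and Pgk1 (0.52, SE 0.38) followed. Without knockout 2, only wild type contributes a spread and knockout 1 is assumed to vary like it. In that setting the differences were 1.85 for Flvcr2, 1.23 for Cpox and 2.21 for Pfkfb3. They were -1.56 for Slc39a8, -2.35 for Ltf, -1.55 for Slc22a17 and -1.78 for P4ha2. These genes were picked by their values there.

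**Figure D5:**
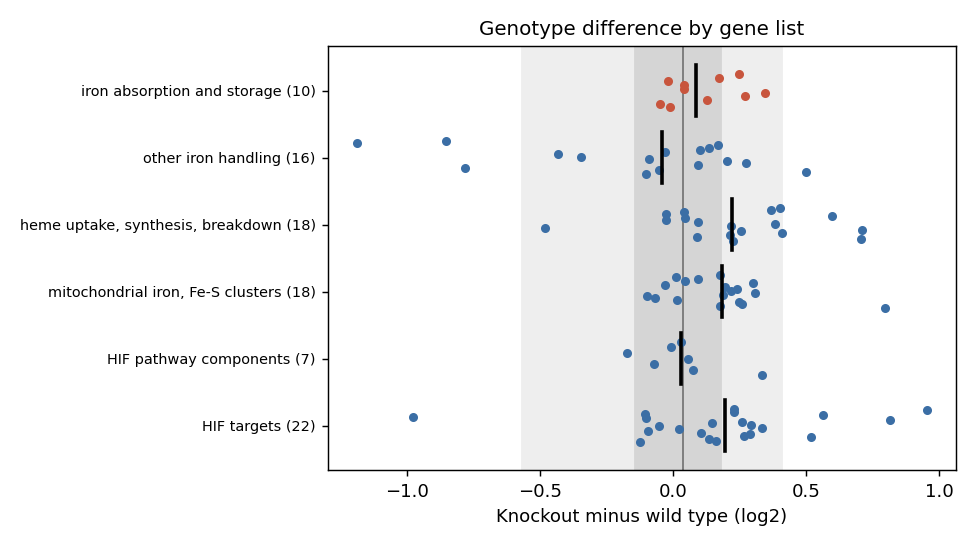
Knockout minus wild type (x axis, log2) of each tested gene in the iron gene set (red) and in 5 other lists (blue), with a black bar for the list's median and the number of genes in parentheses. The grey bands hold the middle 50% and 90% of all genes tested and the grey line their median, 0.037. The 10 iron genes lie between -0.048 and 0.35.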

How the data were processed

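Per the submitters' processing notes, the scanner software was Agilent Feature Extraction 11.5.1.1. Per the file headers the deposited intensity is a background-subtracted, detrended signal not scaled between arrays. Control and outlier-flagged spots (91 to 129 per array) were left out, spots of a probe averaged as log2, and each array scaled by its 75th percentile. Of 39429 probes, 28025 matched 1 symbol by accession in the RefSeq table of GRCm38.p6. The array annotation is of another build, so only promoter windows carry coordinates. Probes well above background on at least 2 arrays were kept and the brightest per gene used. Genotypes were compared over 14395 genes with lmFit and eBayes (intensity trend, limma 3.58.1, R 4.3.3), Benjamini-Hochberg adjustment and a threshold of 0.05. The authors' deposited table holds log2 values centred per probe, with scale not stated. Its column medians were 0.053, -0.095, -0.11 and 0.12, and it matched the scaled scanner values (correlation 1.00 over 39408 probes). It served as an alternative, as did the deposited median spot and background intensity for normexp (offset 50). The flags the authors deposited with each spot are a score of 0 or 1. The fit was tested on simulated data.

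Members and lists were chosen with earlier results of these data known. Besides the 10 genes, the 4 genes of smallest p per list, Hamp, Hamp2, Hfe, Tfr2, Slc46a1, Hmox1, 1 gene per marker list and Cyp3a11 are named by rule, apart from items not reported here. Names of counts of 7 or fewer, Gata4, Pdx1 and distal markers were chosen after their values were seen. The main fit did not pair samples by the labels' replicate numbers. Deviations of samples with the same number correlated at 0.051 across genes. That value cannot decide whether the numbers paired samples, since the arrays were few and 1 slide held samples of different number.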

Additional observations from a re-analysis of the deposited data

How the results depend on the processing

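The count of 0 iron genes called held under all 16 alternatives with a test, the replicate block, other scalings and each left-out array included. Heph came nearest to the threshold, in the fit without knockout 2, where only wild type contributed a spread. With the replicate block the median difference was 0.086, the lists' count 0 and the count over all genes 32, against 6 without it. The replicate block, both filters on dim probes, no intensity trend and robust variance left each iron gene's difference unchanged. The authors' table holds nearly the same values. These alternatives are thus not separate observations. In the main fit 0.0417% of all genes were called, so most sets of 10 genes would also count 0. The other lists' count was 0, or 0 to 7 when each array was left out. The median difference of the iron genes was 0.086, moved to -0.37 after normexp, -0.35 on the enterocyte scale (chosen after seeing the data) and 0.45 within slide 2, and ran from -0.26 to 0.35 when each array was left out. Over all genes tested the median was 0.083 after normexp, -0.40 on the enterocyte scale and 0.080 within slide 2, against 0.037 in the main fit. The normexp setting also started from the median spot intensity and not from the processed signal. The cause of these moves was not tested. Differences that changed sign under another setting follow. After normexp they were 0.0026 (Slc11a2), -0.54 (Slc40a1), -0.30 (Heph), -0.65 (Fth1) and -0.67 (Ftl1), and after quantile scaling -0.17 for both Fth1 and Ftl1. With median scaling they were 0.048 (Cybrd1), 0.011 (Slc11a2) and 0.038 (Epas1), and with the mean of all probes 0.030 (Cybrd1) and 0.074 (Epas1). On the enterocyte scale they were -0.30 (Slc40a1), -0.16 (Heph), -0.087 (Tfrc), -0.39 (Fth1), -0.39 (Ftl1), -0.26 (Ireb2) and -0.19 (Aco1). Within slide 2, which equals a slide block and leaves no residual degrees of freedom, they were 0.12 (Cybrd1), 0.052 (Slc11a2) and 0.29 (Epas1). Other probes gave 0.072 (Cybrd1) and 0.20 and 0.040 (Epas1). Leaving out each array gave Cybrd1 -0.90 to 0.88, Slc11a2 -0.14 to 0.044, Slc40a1 -0.38 to 0.63, Heph -0.87 to 1.41, Tfrc -0.17 to 0.86, Fth1 -0.20 to 0.28, Ftl1 -0.13 to 0.22, Epas1 -0.44 to 0.40, Ireb2 -0.57 to 0.92 and Aco1 -0.057 to 0.55. All 10 genes were well above background on all arrays on the probe used, but their values moved with the background treatment, and after normexp Cybrd1 was at -0.43, Epas1 at -0.64, Ireb2 at 0.76 and Aco1 at 0.82, with the same sign as before.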

Other observations

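Ncoa4, whose protein delivers ferritin to lysosomes to release its iron, was picked after its values were seen. It read 4.04 and 5.22 in wild type 1 and 2, against 6.16 and 3.50 in knockout 1 and 2, so that the arrays of slide 2 were high as for Cybrd1. The slide 2 mean exceeded that of the other arrays by 1.93 for Ncoa4 and by 1.64 for Cybrd1. Both slide 2 arrays lay above both other arrays in 5 of the 10 iron genes (Cybrd1, Slc40a1, Heph, Epas1 and Ireb2) and below them in 1 (Tfrc), against 19.5% and 24.5% of all genes tested. For Slc40a1 the smaller of the gaps within a genotype was 0.013, so its place among the 5 rests on nearly equal wild-type values. The count holds for the probe used per gene, and other probes did not all follow. On the second Epas1 probe the slide 2 arrays were the low ones, at 2.25 and 2.37 against 2.63 and 2.92. The third Epas1 probe and the second Heph probe were mixed. The second Cybrd1 probe and the dimmest Heph probe had slide 2 above. The iron in the animals' diet and their iron status are not given in the sources used here.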
